A study of Mus musculus with 8 samples.

Results

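The DDX5 eCLIPseq peaks described here lie on 9 genes of mucus and goblet cell secretion, Muc2, Fcgbp, Clca1, Zg16, Agr2, Tff3, Spink4, Muc13 and Muc4, out of 55450 genes annotated in GENCODE M21 on mouse genome build GRCm38. A peak was assigned to a gene when it overlapped the gene on the same strand. Goblet cells are the secretory cells that build the mucus layer of the intestine. They pack the gel-forming mucin Muc2 into granules and release it with proteins that cross-link, cut or accompany it, while membrane mucins such as Muc13 and Muc4 stay anchored at the cell surface. DDX5 is a DEAD-box RNA helicase, an enzyme that remodels RNA structures and takes part in splicing and other steps of RNA processing.

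In eCLIPseq, UV light links proteins to the RNA they touch, the protein is immunoprecipitated (IP) after RNase treatment, and the RNA fragments are sequenced beside an input library of the same fragment size. The 8 samples came from epithelial cells released with EDTA from the intestine of C57BL/6 mice. The small intestine, from 8-week-old female wild-type mice, gave 2 CLIP samples (the IP libraries) and 2 inputs, which the authors merged into 1 list of peaks that recurred in both replicates. The colon gave 1 CLIP sample and 1 input for an antibody named mAb and 1 CLIP sample and 1 input for an antibody named rAb, each with its own list. The labels call the colon mice wild type, but their growth protocol describes mice of 120 days with a floxed Apc allele and a Cre driven by CDX2. The study's eCLIPseq methods name wild-type mice, as the genotype label does, but female and younger than 120 days. The deposited values do not settle this. Both antibodies carry the same catalogue number, so what sets mAb and rAb apart is not known here, and the colon lists are named as merged from 2 replicates. The cells were not sorted by type, and fewer goblet cells and less RNA per cell cannot be told apart in them.

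The members had 134 of the 16455 peaks in the colon mAb list, 27 of the 9146 in the colon rAb list and 21 of the 1278 in the small intestine list. The colon lists hold every called peak, enriched or not, whereas the small intestine list holds only peaks past a cutoff of 3 in both −log10 p and log2 fold of IP over input. A peak past that cutoff is called a site. Each list gives 1 value per peak, with no replicate values, so no test between lists was made. For colon peaks with a −log10 p above 0, the deposited fold and p could be traced back to whole IP and input reads, and an exact (Clopper-Pearson) 95% interval of the log2 fold was taken from them. Such intervals cover counting error only, and an input given as 1 read may also be 0, since a pseudocount cannot be told from a read.

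The stretches of RNA on which the results turn are printed first, 5′ to 3′ on the transcribed strand of GRCm38, with the deposited peaks in capitals and the bases around them in lower case. The first holds the colon site of Muc2 and reaches to the outer ends of the called peaks on either side of it. The second spans the 4 small intestine sites in exon 4 of Muc13, where the highest fold lay. The others are the remaining Muc13 site with a fold above 5 on the log2 scale, the Muc13 site with the highest −log10 p, the Fcgbp site of the small intestine, and the 2 colon mAb peaks, on Zg16 and in an intron of Muc13, that passed the cutoff in p but not in fold.
Muc2, colon mAb site, chr7:141751873-141752169 (+): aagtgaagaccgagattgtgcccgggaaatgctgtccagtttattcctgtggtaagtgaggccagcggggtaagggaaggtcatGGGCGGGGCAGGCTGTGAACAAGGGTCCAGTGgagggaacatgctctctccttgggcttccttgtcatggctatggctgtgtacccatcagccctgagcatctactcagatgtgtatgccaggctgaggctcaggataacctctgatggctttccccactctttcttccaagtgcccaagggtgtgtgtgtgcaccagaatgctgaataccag
Muc13, small intestine sites of exon 4, chr16:33803033-33803182 (+): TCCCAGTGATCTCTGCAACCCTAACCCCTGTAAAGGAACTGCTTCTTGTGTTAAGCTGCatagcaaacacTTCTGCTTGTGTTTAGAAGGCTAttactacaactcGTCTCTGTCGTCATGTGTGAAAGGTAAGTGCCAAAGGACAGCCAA
Muc13, small intestine site of exon 8, chr16:33810878-33810941 (+): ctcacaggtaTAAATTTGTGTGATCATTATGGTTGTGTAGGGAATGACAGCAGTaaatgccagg
Muc13, small intestine site of exon 3, chr16:33799487-33799589 (+): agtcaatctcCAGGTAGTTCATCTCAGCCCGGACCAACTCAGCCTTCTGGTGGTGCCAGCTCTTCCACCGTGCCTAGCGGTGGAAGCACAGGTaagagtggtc
Fcgbp, small intestine site, chr7:28086447-28086526 (+): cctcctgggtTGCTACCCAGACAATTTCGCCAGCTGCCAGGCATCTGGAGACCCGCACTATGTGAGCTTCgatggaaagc
Zg16, colon mAb peak, chr7:127050320-127050438 (-): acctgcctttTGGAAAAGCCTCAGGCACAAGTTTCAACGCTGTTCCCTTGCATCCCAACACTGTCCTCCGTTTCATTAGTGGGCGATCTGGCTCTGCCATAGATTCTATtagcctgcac
Muc13, colon mAb intron peak, chr16:33798216-33798302 (+): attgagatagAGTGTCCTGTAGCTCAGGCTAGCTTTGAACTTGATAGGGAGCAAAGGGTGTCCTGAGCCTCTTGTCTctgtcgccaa

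The sites on members were counted in each list. In the colon mAb list the only member site was on Muc2, in the colon rAb list no member had a site, and in the small intestine list 20 sites were on Muc13 and 1 on Fcgbp. Over all genes, 39 of the 138 with a mAb site (28.3%) also had a site among the 469 genes of the small intestine list. Agr2, Clca1, Spink4, Tff3 and Zg16 had no site in any of the 3 lists, and Muc4 had no peak at all. The member share of 1 site in 134 peaks for mAb stood beside 1.22% of all called peaks in that list, and 0 in 27 for rAb stood beside 1.99%. By gene, 1 of 8 members with a mAb peak and 0 of 5 with a rAb peak had a site, beside 2.65% and 3.01% of all genes with a peak. In the small intestine list 100% of peaks were sites by construction. By gene, 2 of the 9 members had a site there, beside 469 of the 55450 annotated genes, expressed or not.

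**Figure D1:**
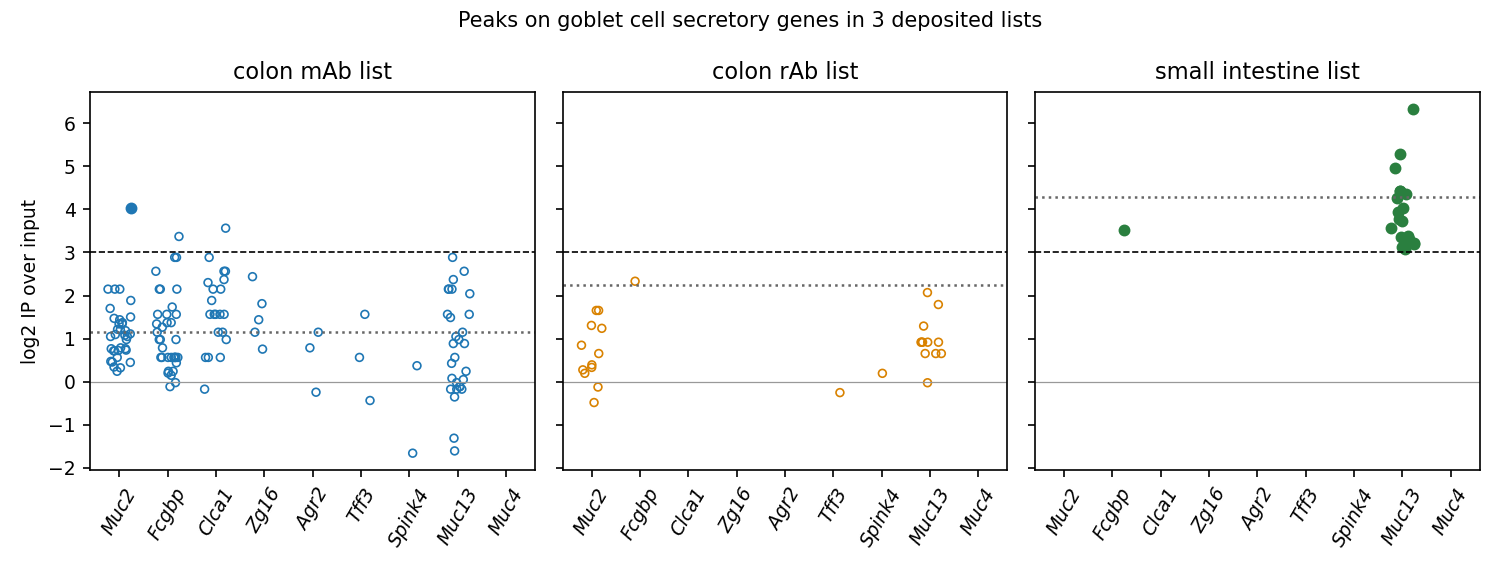
Log2 IP over input (y axis) of every peak on each member gene (x axis) in the 3 lists; each point is 1 peak, filled where it is a site, the dashed line is the cutoff of 3 and the dotted line the median of all peaks in that list. In the colon mAb list 1 Muc2 peak at 4.02 is the filled point, no rAb point reaches the dashed line, and the filled points of the small intestine are 20 Muc13 sites and 1 Fcgbp site.

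Muc2, the mucin that forms the gel of the mucus layer, lies at chr7:141690340-141754693 on the plus strand. It had 35 peaks in the mAb list, the 10th highest number among 5211 genes with a peak, a rank shared by 4 genes. Of these peaks 32 lay in coding sequence, 2 in introns within 500 bases of an exon and 1 in the 3′ UTR. All 35 had a log2 fold above 0, from 0.24 to 4.02 with a median of 1.08, and together they held 612 IP reads and 452 input reads. Over the whole mAb list, 13811 of 16455 peaks had a log2 fold above 0, and the median was 1.15. The Muc2 coding peaks ranged from 0.24 to 2.15, and the interval of the fold lay above 0 for 15 of the 35 peaks.

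The Muc2 site, at chr7:141751957-141751988, was the exception in height. With 11 IP reads and 1 input read, its log2 fold was 4.02 (interval 1.24 to 9.45) at a −log10 p of 3.46. It lay in an intron of 205 bases, 33 bases after the end of the upstream exon and 140 bases before the next exon. The peak before it, which covers the end of the upstream exon, had 24 IP and 14 input reads and a log2 fold of 1.34 (interval 0.33 to 2.41). The peak after it, on the next exon, had 23 IP and 12 input reads and an interval of the log2 fold from 0.44 to 2.64. The intron site thus carried fewer IP reads than either exon peak and far fewer input reads, and its interval overlapped both of theirs. Bases G and C made up 68.8% of the site, none of it was marked as a repeat in the reference, and no rAb peak overlapped it. In the printed stretch, these flanking peaks are the lower-case ends.

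Apart from the site, the mAb peaks with most reads on Muc2 were at chr7:141700417-141700576, with 40 IP and 26 input reads and a log2 fold of 1.19, and at chr7:141747955-141748172, with 32 IP and 24 input reads and a log2 fold of 0.98. No peak lay between chr7:141700921 and chr7:141747592. Of the 46672 bases in this stretch, 40100 are undetermined (N) in GRCm38 and 1888 are annotated as exon, so much of the middle of the gene had no sequence to which reads could align. GENCODE M21 describes Muc2 by partial transcripts on either side of it.

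**Figure D2:**
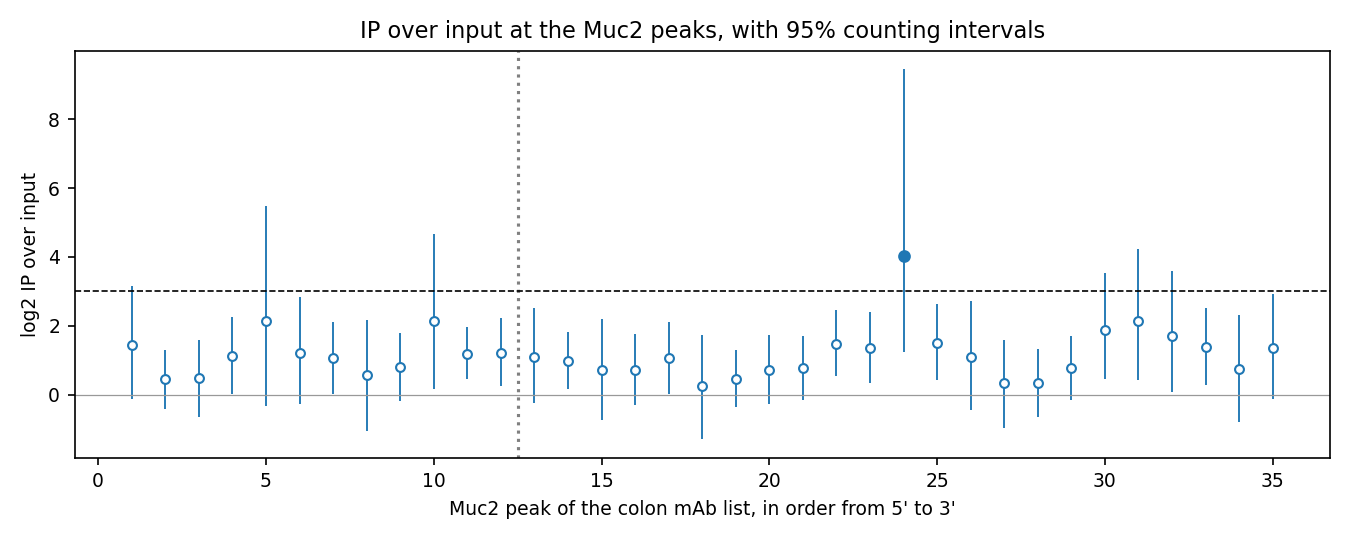
Log2 IP over input (y axis) of the 35 Muc2 peaks of the colon mAb list in their order along the gene (x axis), with bars for the 95% counting interval; the filled point is the site, the dashed line the cutoff of 3, and the dotted vertical line the stretch of 46672 bases without a peak. All points lie above 0 and only the site, at 4.02, lies above 3, with a bar that reaches from 1.24 to 9.45.

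In the rAb list Muc2 had 12 peaks, all in coding sequence, with log2 folds from -0.48 to 1.65 and a median of 0.52. The peak with most reads, at chr7:141749729-141749765, had 11 IP and 14 input reads and a log2 fold of 1.31 (interval 0.02 to 2.55), and it was the only one of the 12 whose interval lay above 0. All 12 overlapped a mAb peak of the gene. In the small intestine Muc2 had no site.

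Fcgbp and Clca1 are secreted with Muc2. Fcgbp, a large protein of the mucus layer with repeated von Willebrand factor domains, lies at chr7:28071236-28120862 on the plus strand. It had 36 mAb peaks, the 9th highest number in the list, and all were in coding sequence. Their log2 folds ran from -0.11 to 3.37 with a median of 0.98, and 2 were at or below 0. The highest, at chr7:28117524-28117585, rested on 7 IP reads and 1 input read and passed the fold cutoff but not the p cutoff, with a −log10 p of 2.05. The peak with most reads, at chr7:28086110-28086188, had 14 IP and 8 input reads and a log2 fold of 1.37 (interval 0.02 to 2.83). The single Fcgbp peak of the rAb list, at chr7:28093512-28093610, had 8 IP and 5 input reads and a log2 fold of 2.33 (interval 0.54 to 4.29), the highest of the 27 rAb peaks on members.

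The Fcgbp site of the small intestine, at chr7:28086457-28086516 in exon 5 of the transcript used, reached 3.51 on the log2 scale at a −log10 p of 12.97. A mAb peak of the colon, chr7:28086392-28086472, overlapped its first bases with 12 IP and 6 input reads and a log2 fold of 1.56 (interval 0.04 to 3.26). Among 469 genes with a site in the small intestine, 202 had a single site as Fcgbp did.

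Clca1, a secreted metalloprotease that processes mucus, lies at chr3:145003817-145032776 on the minus strand. Its 21 mAb peaks were all in coding sequence, with log2 folds from -0.17 to 3.56 and a median of 1.56, the highest median among the members with 3 or more mAb peaks. No traced peak had more than 10 IP reads. The highest fold, at chr3:145004943-145005024, rested on 8 IP reads and 1 input read (interval 0.66 to 9.04) and had a −log10 p of 2.39, short of the cutoff. The peak with 10 IP reads, chr3:145018619-145018737, had 3 input reads and a log2 fold of 2.30 (interval 0.34 to 4.80). Clca1 had no peak in the rAb list.

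Zg16, a small lectin of the mucus that binds Gram-positive bacteria, lies at chr7:127050156-127087328 on the minus strand. It had 5 mAb peaks, all coding, with log2 folds from 0.76 to 2.44. The peak at chr7:127050330-127050428 had 22 IP and 6 input reads, a log2 fold of 2.44 (interval 1.09 to 4.03) and a −log10 p of 4.07, so it passed the p cutoff and missed the fold cutoff. Its neighbour at chr7:127050485-127050582 had the same 22 IP reads over 12 input reads and a log2 fold of 1.44 (interval 0.36 to 2.59). Its 5 peaks held 85 IP and 44 input reads together. No rAb peak lay on Zg16.

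The remaining secretory members had few peaks. Agr2, an endoplasmic reticulum protein disulfide isomerase needed to make Muc2, had 3 mAb peaks with log2 folds of -0.24, 0.79 and 1.15. Tff3, the trefoil peptide of goblet cells, had 3 with log2 folds of -0.44, 0.56 and 1.56. Spink4, a Kazal-type protease inhibitor, had 2 with log2 folds of -1.66 and 0.37. Reads were traced for 5 of these 8 peaks, none had more than 9 IP reads, and the interval of each included 0. In the rAb list Tff3 had 1 peak at a log2 fold of -0.25, Spink4 had 1 at 0.19 with 4 IP and 11 input reads, and Agr2 had none.

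Muc13, a membrane mucin of the epithelial surface that enterocytes make as well as goblet cells, lies at chr16:33794037-33819934 on the plus strand. Its 20 small intestine sites were the third highest number of any gene in that list, shared with 1 other gene. Of these 15 were in coding sequence, 4 in the 3′ UTR and 1 in an intron near an exon, and they fell on 9 of the 13 exons of the transcript used. Log2 folds ran from 3.08 to 6.33 with a median of 3.75, below the median of 4.29 over all sites of the list, and 8 of the 20 were above 4. The −log10 p ran from 4.21 to 43.5. Some sites abut each other, and joining intervals within 10 bases left 16 stretches, so the 20 are not independent.

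The 3 highest folds on Muc13 were all in short coding exons. In exon 4, of 129 bases, chr16:33803062-33803091 reached a log2 fold of 6.33 (−log10 p 23.1), and chr16:33803103-33803125 4.97 (13.7). In exon 8, of 123 bases, chr16:33810888-33810931 reached 5.29 (−log10 p 11.1). The remaining sites of exon 4 had log2 folds of 4.42 at its 5′ end and 3.23 at its 3′ end, where the site runs on into the intron. The highest −log10 p, 43.5, was at chr16:33799497-33799579 at the end of exon 3, with a log2 fold of 3.94. Exon 3 is the long exon, of 645 bases, and each of its 4 sites, taken with 10 bases on either side, held a run of 20 bases that occurs more than once in the gene. The lowest fold, 3.08, was also in exon 3, at chr16:33798932-33798941.

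Muc13 was peak-rich in the colon too. The colon lists were not cut at a log2 fold of 3, so lower folds than in the small intestine list could appear only there. In the mAb list it had 29 peaks with log2 folds from -1.61 to 2.89 and a median of 0.89, and 9 were at or below 0. Its 12 coding peaks had a median log2 fold of 0.01, its 7 peaks in the 3′ UTR 0.89, and its 10 intron peaks 1.53. The peak with most reads was in an intron, at chr16:33798226-33798292, with 39 IP and 14 input reads, a log2 fold of 2.04 (interval 1.13 to 3.04) and a −log10 p of 5.78, the highest −log10 p of any member in the colon. Bases marked as repeats in the reference made up 50.7% of it. The highest fold, 2.89, was in the 3′ UTR at chr16:33819117-33819186, from 10 IP and 2 input reads (interval 0.66 to 6.12). The lowest, -1.61, was in coding exon 12.

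In the rAb list Muc13 had 12 peaks, 9 coding and 3 in the 3′ UTR, with log2 folds from -0.02 to 2.07. The peak with most reads, chr16:33819418-33819517 in the 3′ UTR, had 11 IP and 10 input reads and a log2 fold of 1.79 (interval 0.42 to 3.18). The highest, at chr16:33819846-33819868, rested on 4 IP and 3 input reads.

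Of the 20 small intestine sites on Muc13, 14 overlapped a colon mAb peak, 6 a rAb peak and 15 a peak of either list. The same shares over all small intestine sites were not computed, so these counts have no background beside them. The overlapping colon peaks had log2 folds between -0.35 and 2.89, and none was a site. At the exon 4 maximum, with 6.33 in the small intestine, the mAb peak had 6 IP and 2 input reads and a log2 fold of 2.15 (interval -0.33 to 5.49). At the exon 8 site, with 5.29 in the small intestine, the rAb peak had 3 IP and 5 input reads and a log2 fold of 0.92 (interval -1.77 to 3.28). At the 3′ UTR site with 4.26, chr16:33819134-33819171, the mAb peak had the 2.89 given above, the closest of the pairs. The small intestine list was cut at 3 and the colon lists were not. Tissue, library protocol (paired-end in the small intestine, single-end in the colon) and peak selection changed together and cannot be told apart, so the values stand side by side with no test.

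**Figure D3:**
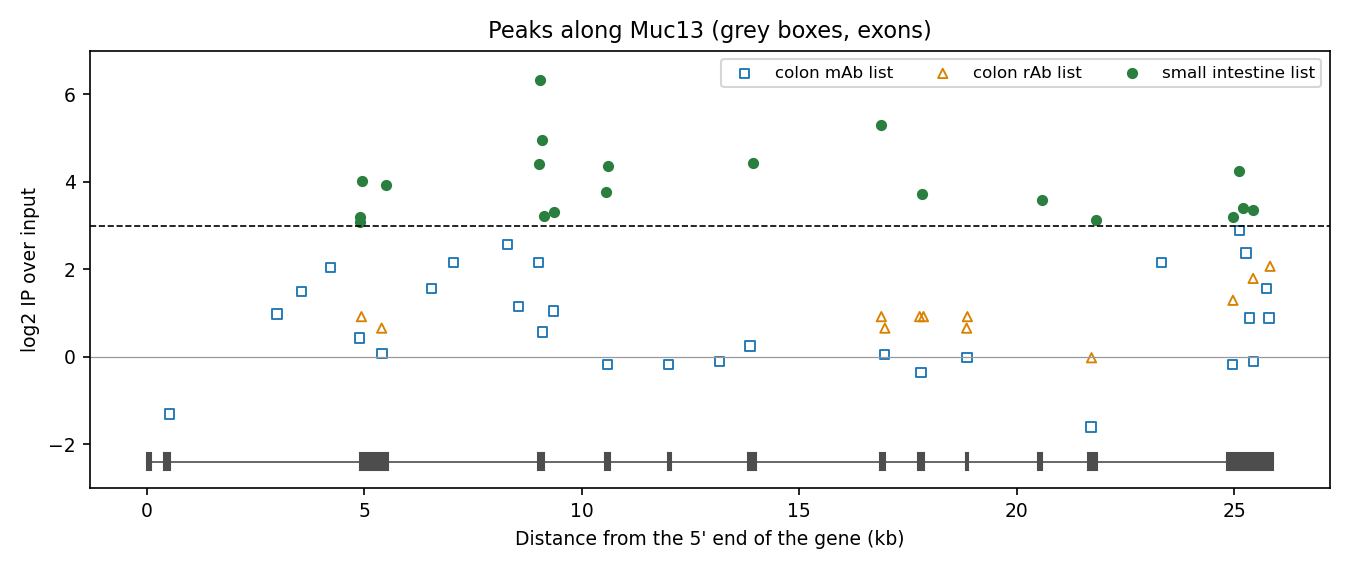
Log2 IP over input (y axis) of the Muc13 peaks in each list against the distance of the peak's middle from the 5′ end of the gene in kilobases (x axis), with the 13 exons as grey boxes and the cutoff of 3 as a dashed line. The small intestine sites, filled circles from 3.08 to 6.33, lie over 9 exons and, in 1 case, an intron. The colon peaks, open squares (mAb) and triangles (rAb), sit between -1.61 and 2.89. The small intestine list was cut at 3 and the colon lists were not, so its points could not lie below the dashed line.

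Muc4, a membrane mucin like Muc13, lies at chr16:32735886-32782391 on the plus strand and has 11757 bases of exon, the most of the members. It had no peak in any of the 3 lists. Called peaks require reads over the transcript, and the lists hold no RNA level, so whether Muc4 RNA was present in these cells was not tested.

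The peaks of both antibodies were set side by side. Of the 134 mAb peaks on members 27 (20.1%) overlapped a rAb peak, and of the 27 rAb peaks 25 (92.6%) overlapped a mAb peak. Over all peaks these shares were 18.2% of the mAb list and 32.0% of the rAb list, with no test of the difference. These formed 29 pairs, with the mAb fold above the rAb fold in 7 of them. The difference of the log2 folds, mAb minus rAb, had a median of -0.54 and ran from -2.35 to 1.67. Reads were traced on both sides in 14 pairs, and the intervals overlapped in 14 of 14, which at these read numbers does not show that the antibodies gave the same fold. The 11 pairs on Muc13 all had the higher fold in rAb. On Muc2 the median difference over 14 pairs was 0.01. The median of all peaks differs between the lists in the same direction as most pairs, at 1.15 for mAb and 2.24 for rAb. Among traced peaks with at least as many IP reads as the shallowest site of the list, the medians were 1.49 and 1.52. The part of read number and depth in the differences between the antibodies was not tested.

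Against the rest of each list, member peaks had more reads and no higher folds. The median log2 fold of member peaks was 1.06 for mAb and 0.85 for rAb, beside 1.15 and 2.24 over all peaks. Traced member peaks had a median of 8 IP reads for mAb and 4 for rAb, beside 3 over all traced peaks in both lists. The shallowest site had 10 IP reads for mAb and 7 for rAb, and 47 mAb and 5 rAb member peaks reached that number, with 1 and 0 sites among them. Over all peaks that deep, 16.6% were sites for mAb and 14.8% for rAb. The 47 were 30 peaks of Muc2, 7 of Fcgbp, 5 of Muc13, 4 of Zg16 and 1 of Clca1, with a median log2 fold of 1.19, beside 1.49 over all mAb peaks of that depth. For rAb the medians at that depth were 1.31 over the 5 member peaks and 1.52 over all, a smaller gap than without the read minimum.

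By a looser measure, an interval of the log2 fold above 0, 30 of 113 traced member peaks passed in the mAb list (26.5%), beside 8.04% of all traced peaks. In the rAb list 3 of 23 passed, beside 17.5%. The median number of IP reads was 8 in traced mAb member peaks and 4 in traced rAb member peaks, beside 3 over all traced peaks of either list. The part of read number in these differences was not tested.

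**Figure D4:**
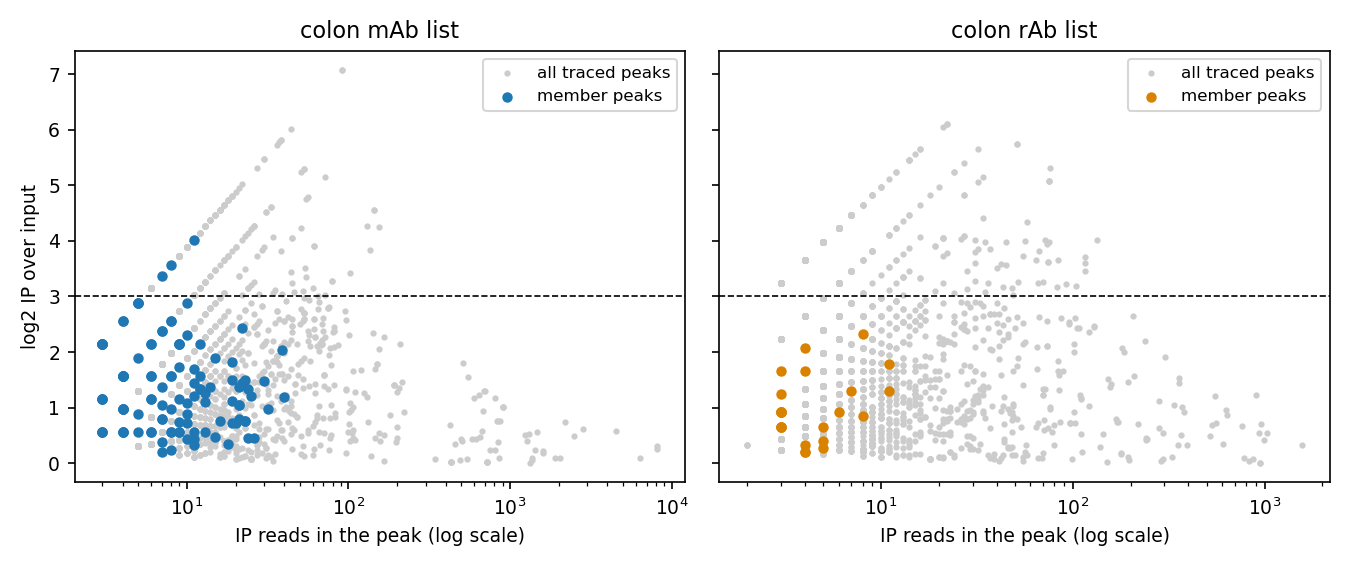
Log2 IP over input (y axis) against the traced IP reads in the peak (x axis, log scale) for the colon mAb and rAb lists; grey points are all traced peaks, coloured points the member peaks, and the dashed line the cutoff of 3. Traced mAb member peaks have between 3 and 40 IP reads and lie mostly below the line, and those of rAb have between 3 and 11.

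Member peaks were mostly in coding sequence. The share was 85.1% of 134 (exact 95% interval 77.9 to 90.6) for mAb, 88.9% of 27 (70.8 to 97.6) for rAb and 76.2% of 21 (52.8 to 91.8) for the small intestine, beside 49.8%, 55.5% and 31.7% over all peaks of the lists. Peaks of a gene share its transcript, so these intervals are too narrow for a statement about genes. The median share of G and C was 55.5%, 51.4% and 53.3% in member peaks, beside 56.0%, 55.6% and 59.7%. At least 50% of the bases were marked as repeats in 7 mAb, 1 rAb and 0 small intestine member peaks. These were 5.2%, 3.7% and 0% of the member peaks, beside 12.4%, 7.1% and 8.9% of all peaks.

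Other genes linked to mucus or goblet cells were counted in the same way. They were 68 annotated genes for other mucins, enzymes of mucin glycosylation, transcription factors of the goblet lineage and a mixed group of further goblet cell genes. In the mAb list 32 of the 68 had a peak, with 153 peaks and 3 sites on 3 genes. That was 1.96% of their peaks and 9.38% of the genes with a peak, beside the shares of 1.22% and 2.65% over the whole list given above. St6galnac6, a sialyltransferase, had a site in an intron at chr2:32607685-32607768 with 11 IP reads and 1 input read and a log2 fold of 4.02. Galnt7, an enzyme of mucin O-glycosylation, had one in an intron at chr8:57652674-57652759 with 12 IP and 2 input reads and a log2 fold of 3.15. Dmbt1, a secreted scavenger receptor of mucosal surfaces, had one in an intron at chr7:131086933-131086977 with 10 IP reads and 1 input read and a log2 fold of 3.89. Each of the 3 lay in an intron, as did the Muc2 site and 95 of all 201 mAb sites (47.3%), and none of the 3 had more than 12 IP reads. The rAb list had 41 peaks on 12 of the 68 genes and no site. In the small intestine 1 of the 68, the membrane mucin Muc3, had 4 sites, all coding, with log2 folds from 3.20 to 3.67. Over all 55450 annotated genes, 469 had a site in that list.

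Markers of other cell types were read in the same lists. In the small intestine 6 of 8 enterocyte markers (Fabp1, Fabp2, Apoa1, Apoa4, Sis and Vil1) had sites, 40 in all, with a median log2 fold of 3.47. The enterocyte markers Alpi and Lct had none. The members with sites there were Muc13 and Fcgbp, and Muc2, Muc4, Clca1, Zg16, Agr2, Tff3 and Spink4 had none. Markers of Paneth, enteroendocrine, tuft and stem cells, stroma, T cells, and plasma and B cells had no site there either. Of the general epithelial markers, 3 of 4 had sites there. In the colon mAb list 5 of 5 colonocyte markers and 4 of 4 general epithelial markers had peaks. Of these markers only Krt8 had sites in that list, 4 in number. In the rAb list 1 of 5 colonocyte markers had a peak. In the small intestine the colonocyte marker Krt20 had 10 sites. Markers of stroma had 90 mAb peaks with a median log2 fold of -0.81, and those of plasma and B cells 16 with a median of -1.20. In the rAb list stroma markers had 77 peaks with a median of 0.07, and plasma and B cell markers 14 with a median of -0.55. Markers of T cells had no peak in either colon list. The part of cell composition in the members' values was not tested.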

How the data were processed

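The deposited lists came from eCLIPseq reads that, per the submitters' processing notes, were handled with cutadapt 1.9.1, STAR 2.4.0i and SAMtools 1.4.1 on mm10 (GRCm38). Peaks had been called on the IP library by the authors' run of CLIPper. The deposited log2 values are IP over input reads, each normalized for depth, and the deposited −log10 p, capped at 400, tests the same reads. Small intestine replicates were merged by the authors with the Irreproducible Discovery Rate procedure. Read totals per sample are not given in the sources used here.

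Peaks were overlapped by strand with GENCODE M21 (any base), with regions in the order coding sequence, UTRs, non-coding exon, intron within 500 bases of an exon, and other intron. All 36 member transcripts spliced from the reference genome equalled their GENCODE sequences. The ratio of input to IP depth, 1.48 for mAb and 3.15 for rAb, was read from the commonest fold. That fold was assumed to come from 3 IP reads and 1 input read. For each peak the smallest whole read numbers were taken that return its fold and, to within 1%, its p by Fisher's exact or Yates' chi-square test. They were found for 99.2% of 13011 eligible mAb peaks and 99.6% of 8282 eligible rAb peaks. Peaks with a −log10 p of 0 (3409 and 820) or at the cap (35 and 44) were not traced. The tracing was tested on simulated data in which the same read numbers were made common, so that test cannot check the assumption about the commonest fold. Of the members, all sites and the peaks with the highest and lowest fold and most reads were named, and of the related genes those with a site. Members, lists and cutoffs were chosen with earlier results of these data known. A further peak list with 2 value columns could not be tied to a sample label and was left out. Alternatives were other cutoffs, exon overlap, joined intervals and read minimums. Python 3.11.15, pandas 2.3.3, SciPy 1.17.1 and pysam 0.24.0 were used.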

Additional observations from a re-analysis of the deposited data

How the results depend on the processing

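Of 42 alternative values, 31 stayed close to the reported ones, within 1.5 times for counts and within the 95% interval for shares and medians, and 11 moved. Among the 31 are the rAb site counts, which were 0 and stayed 0. Stricter cutoffs could not change a count of 0, so those values say nothing about stability. The colon mAb count of 1 member site, on 1 member, became 0 on 0 members with a −log10 p cutoff of 5 or with at least 50% of the peak required in an exon. It became 3 on 3 members (Muc2, Zg16 and Muc13) with a log2 fold cutoff of 1. With a Benjamini-Hochberg adjusted p under 0.05, taken over all peaks of the list, and a log2 fold above 1, it became 5 on 3 members, out of 134 peaks and beside 2.64% of all mAb peaks, and the rAb count stayed at 0 of 27, beside 5.71% of all rAb peaks. The small intestine count of 21 sites on 2 members became 8 on 1 member, Muc13, with a log2 fold cutoff of 4. The median over all sites of that list, 4.29, was above this cutoff. Except for the adjusted p, the shares of all peaks past these alternative settings were not computed. The median log2 fold of rAb member peaks, 0.85, was 1.55 over the 2 peaks with at least 10 IP reads. No paired analysis was possible because the small intestine replicates were merged in 1 list and the colon lists have 1 CLIP sample each. For the same reason no replicate could be left out. Read number limits the colon folds: at 11 IP reads and 1 input read, the interval of the Muc2 site spanned 1.24 to 9.45.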
